A study of Rattus norvegicus with 6 samples.

Results

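The replicative polymerase and clamp genes are 10 rat genes, chosen by name, whose products copy DNA at the fork: Pola1, Pola2, Prim1, Pold1, Pold2, Pole2, Pcna, Rfc4, Fen1 and Lig1. A probe with an mRNA accession of the gene was found for 8 of the 10, among 13823 protein-coding genes with a probe. No such probe was matched for Pola1 and Pole2, which are not analysed here. All 8 were well above background in all 6 scans, so none depended on 1 group to enter the 10001 genes tested. Each was read by 1 probe with 1 spot per array.

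At a replication fork, primase and polymerase alpha lay down a short RNA and DNA primer, and the RFC clamp loader then opens the PCNA ring and closes it around the primed DNA. PCNA tethers polymerase delta, which extends the lagging strand in Okazaki fragments, while polymerase epsilon copies the leading strand. FEN1 trims the displaced flap of each fragment and DNA ligase I seals the nick. In cycling mammalian cells most of these genes are transcribed towards the start of S phase, and many are known targets of E2F factors.

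The samples were H9c2 cells, a clonal myoblast line from embryonic rat heart. In the hypoxia/reoxygenation (H/R) group, 3 samples were kept for 1 h in medium lacking serum and glucose, in a gas mixture of 1% O2, 94% N2 and 5% CO2, and were returned to normoxia for 3 h. The control group was 3 samples of cells kept in normoxia. The labels give a growth medium with 10% serum and 4500 mg/L glucose but not which medium the control cells had during the experiment, so oxygen and nutrient withdrawal cannot be told apart here. The protocol text also names mouse cortex as an RNA source, which goes against the rat line in every other label.

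Each sample had a 1-colour Agilent-made array file, and all lay on 1 slide with H/R and control arrays at different positions, so a position effect and a group effect cannot be told apart. Replicates 2 and 3 of each group shared a slide position, were read in different scans and had 36 uneven-background spots in common in either group, against at most 1 in any other pair of files. Their median absolute log2 difference was 0.0277 in H/R and 0.0244 in control, against 0.127 to 0.131 in the other pairs within a group. They were therefore treated as 2 scans of 1 array and averaged, which left 2 arrays per group. The labels call the samples independent experiments, but the p-values given here rest on the spread between 2 arrays a group. For each probe limma moderated that spread towards the spread over all probes tested, and nothing further went into it. Spots well above background made up 60.8% to 71.1% of non-control spots in H/R scans and 58.4% to 61.7% in control scans. Saturation was flagged at 0 spots. Precision is limited by having 2 arrays a group.

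Muscle and myoblast markers were present: 19 of 21 had a probe and all 19 were well above background in every scan. Their summed level was 140.7 to 145.5 in H/R and 130.8 to 148.2 in control, in units of each array's 75th percentile. Of these, Tnnt2, Myh6 and Ckm rose, by 1.12, 0.98 and 1.21 on the log2 scale, and Myod1, a myogenic transcription factor, fell by 1.49 (limma, adjusted p = 0.00421, 0.00561, 0.0432 and 0.00820). The rest of the 19 did not pass, and over all genes tested 16.0% were called higher and 10.0% lower. Among 8 leukocyte markers the defining genes Ptprc, Adgre1 and Itgam were not well above background in any scan, while Cd68, Csf1r, Aif1 and Cd3e were in all 6 scans. None of these 4 passed the test, and the summed level of the 8 was 0.659 to 0.693 in H/R and 0.595 to 0.730 in control. Cd74, an antigen presentation gene on that list, rose by 1.51 (limma, adjusted p = 0.00797) and was well above background in 2 of 3 control scans. Of 3 endothelial markers with a probe, Pecam1 and Cdh5 were not well above background in any scan, and Tek rose to 2.14 times its control mean (limma, adjusted p = 0.00885). The summed level of the 3 was 0.095 to 0.114 in H/R and 0.050 to 0.054 in control.

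Of the 8 genes, Fen1, Pcna and Pola2 were lower in H/R at an adjusted p under 0.05, and 0 were higher. For comparison, 10.0% of the 10001 genes passed as lower and 16.0% as higher. All 8 differences were negative, with a median of -0.50 on the log2 scale and a range of -0.99 to -0.14, while the median over all genes tested was 0.06. At an unadjusted p under 0.05, 6 of the 8 were lower, against 17.0% of all genes tested that were lower and 24.8% that were higher at that level. For 6 of the 8 every H/R scan lay below every control scan, a pattern that 28.8% of all genes tested showed, while 37.4% showed the reverse and none of the 8 did. The lower quartile over all genes was -0.21, and 7 of the 8 lay below it. In bulk RNA, fewer cells in S phase and less of each transcript per cell cannot be told apart.

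**Figure D1:**
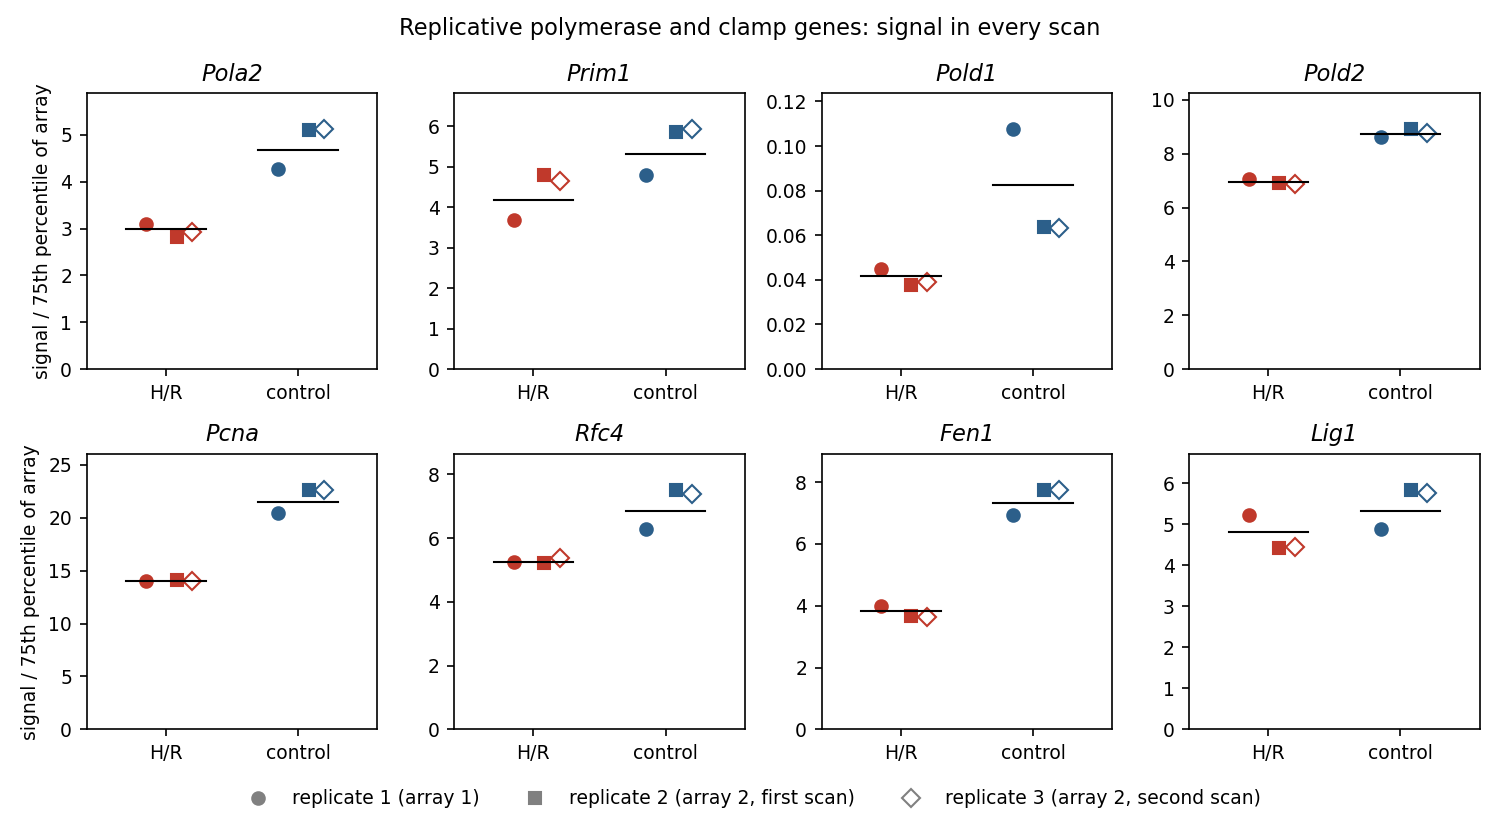
Signal of the 8 genes in each scan, as a multiple of the array's 75th percentile on a linear axis from 0, with H/R scans left of control scans in each panel, filled marks for first scans, open marks for second scans and a bar at the geometric mean of the 2 arrays. Fen1 lies between 3.64 and 3.99 in H/R and between 6.94 and 7.75 in control, and only Prim1 and Lig1 have H/R scans at or above a control scan.

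The promoters of the 3 genes that passed the test, and of Lig1, which had the smallest change, are shown because these genes belong to a pathway with a known shared promoter motif. Each runs from 250 bases before to 50 bases after the annotated start in RefSeq's GRCr8 assembly, 5′ to 3′ on the gene's strand. Fen1 is at chr1:216274347-216274646 (minus strand), Pcna at chr3:139955771-139956070 (minus), Pola2 at chr1:212680493-212680792 (minus) and Lig1 at chr1:83242920-83243219 (plus). Capitals mark matches, on either strand, to an E2F core of 7 letters, TTNNCGC, in which each N is C or G.
Fen1: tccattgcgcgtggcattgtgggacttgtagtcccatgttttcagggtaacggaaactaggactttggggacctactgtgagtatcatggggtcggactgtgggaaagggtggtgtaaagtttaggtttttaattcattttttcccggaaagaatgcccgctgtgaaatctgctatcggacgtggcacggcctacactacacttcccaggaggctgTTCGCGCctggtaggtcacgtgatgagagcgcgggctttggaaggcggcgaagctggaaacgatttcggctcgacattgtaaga
Pcna: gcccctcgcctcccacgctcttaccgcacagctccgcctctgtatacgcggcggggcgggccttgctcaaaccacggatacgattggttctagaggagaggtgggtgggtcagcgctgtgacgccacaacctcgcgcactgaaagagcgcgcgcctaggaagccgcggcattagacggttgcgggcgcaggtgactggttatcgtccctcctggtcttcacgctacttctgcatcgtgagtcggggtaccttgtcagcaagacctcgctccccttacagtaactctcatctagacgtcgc
Pola2: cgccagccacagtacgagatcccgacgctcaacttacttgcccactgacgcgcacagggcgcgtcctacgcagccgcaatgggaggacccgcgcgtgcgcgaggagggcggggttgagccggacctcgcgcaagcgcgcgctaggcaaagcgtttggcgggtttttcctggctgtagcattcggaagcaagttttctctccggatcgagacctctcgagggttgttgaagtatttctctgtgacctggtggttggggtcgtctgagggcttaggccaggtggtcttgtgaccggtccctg
Lig1: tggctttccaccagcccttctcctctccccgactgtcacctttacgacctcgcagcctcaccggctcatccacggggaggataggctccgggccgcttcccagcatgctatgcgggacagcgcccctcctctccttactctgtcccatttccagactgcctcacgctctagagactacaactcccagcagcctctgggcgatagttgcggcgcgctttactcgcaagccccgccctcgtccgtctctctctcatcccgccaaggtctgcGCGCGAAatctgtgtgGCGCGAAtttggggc
The Fen1 window holds 1 match, starting at base -34, and the Lig1 window holds 2, at bases +20 and +36. The Pcna and Pola2 windows hold none. Forms ending in G were not searched, such as ttggcgg in the Pola2 window and ttcccgg in the Fen1 window. Because these 4 genes were chosen by their changes, their windows cannot show whether a match goes with a change. All 10 genes had a promoter in the table, and 7 of the 10 windows (70%) held a core match: those of Pola1, Prim1, Pold1, Pole2, Rfc4, Fen1 and Lig1. Of all 27457 promoters 10.0% held one, and of the 8241 promoters of genes tested 16.1%. With a leading T added to the core, a stricter form contained within those matches, 3 of the 10 windows (Pola1, Pole2 and Lig1) matched, against 2.25% of all promoters and 3.86% of those of genes tested. The Sp1 letters GGGCGG stood in 7 of the 10 windows, 34.9% of all promoters and 57.0% of those of genes tested. CCAAT stood in 5 of the 10, 37.7% of all and 38.9% of tested, and TATAAA in 0 of the 10, 14.3% of all and 9.08% of tested. Median GC content was 62.0% in the 10 windows, 52.3% in all promoters and 59.7% in those of genes tested. The median ratio of observed to expected CG pairs was 0.98, 0.42 and 0.73 in the same order. Every core word holds a CG pair, and whether composition accounts for the core matches was not tested. These are matches of letters and show no binding.

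Priming was represented by Pola2, the regulatory subunit of polymerase alpha, and Prim1, the catalytic primase subunit. Pola2 signal was 3.11, 2.82 and 2.92 times the array's 75th percentile in H/R scans 1 to 3, against 4.27, 5.10 and 5.11 in control scans. The groups did not overlap, and the H/R mean was 0.639 times the control mean (means of log2 values, turned back to a ratio), a log2 difference of -0.65 ± 0.13 (moderated SE, 2 arrays per group; 95% interval -0.98 to -0.32; limma, adjusted p = 0.0275). Prim1 signal was 3.68, 4.80 and 4.65 in H/R, against 4.79, 5.85 and 5.93 in control. Its H/R scan 2 lay just above control scan 1, so the groups touched. The Prim1 difference of -0.35 ± 0.17 did not pass (95% interval -0.81 to 0.11; limma, adjusted p = 0.207).

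Both measured subunits of polymerase delta had lower H/R values in every scan, and neither passed the test. Pold1, the catalytic and proofreading subunit, gave 0.0449, 0.0379 and 0.0388 in H/R, against 0.107, 0.0637 and 0.0633 in control. Its difference of -0.99 ± 0.27 was the most negative of the 8 and also the least precise (95% interval -1.71 to -0.28; limma, adjusted p = 0.0609). The Pold1 spot was dim: its median pixel signal was 158.5, 179.5 and 185 in H/R over local backgrounds of 42, 38.5 and 68, against 385, 216 and 214 in control over backgrounds of 46, 44 and 50. Control array 1 carried much of the change, since without it the difference was -0.61, and without control replicates 2 and 3 it was -1.37 (limma, adjusted p = 0.0187). Pold2, the accessory subunit that joins the others to the catalytic one, gave 7.04, 6.91 and 6.86 in H/R, against 8.64, 8.90 and 8.77 in control. Its scans were close within each group and fully apart between groups, and the difference was -0.33 ± 0.09 (limma, adjusted p = 0.0574).

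Pcna, the sliding clamp, gave 14.0, 14.1 and 14.0 in H/R, against 20.5, 22.6 and 22.6 in control. The H/R scans were nearly level, and the H/R mean was 0.652 times the control mean, a log2 difference of -0.62 ± 0.10 (95% interval -0.87 to -0.36; limma, adjusted p = 0.0172). The difference was -0.55 between the arrays numbered 1 and -0.69 between the other arrays. Rfc4, a small subunit of the clamp loader, gave 5.24, 5.21 and 5.37 in H/R, against 6.29, 7.51 and 7.39 in control. Its groups did not overlap, and the difference of -0.38 ± 0.12 did not pass (limma, adjusted p = 0.0802).

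The genes that finish Okazaki fragments stood at opposite ends of the 8 by adjusted p. Fen1, the flap endonuclease, gave 3.99, 3.66 and 3.64 in H/R, against 6.94, 7.75 and 7.73 in control. It had the smallest adjusted p of the 8, with an H/R mean 0.521 times the control mean and a log2 difference of -0.94 ± 0.11 (95% interval -1.23 to -0.66; limma, adjusted p = 0.00838). It ranked 262nd from the lowest among the 10001 genes, against 626th for Pola2 and 693rd for Pcna. Lig1, the nick-sealing ligase, gave 5.24, 4.42 and 4.44 in H/R, against 4.88, 5.84 and 5.77 in control. H/R array 1 lay above control array 1 by 0.10 on the log2 scale, while H/R array 2 lay below control array 2 (-0.39). The mean difference was -0.14 ± 0.14 with a 95% interval of -0.52 to 0.23 (limma, adjusted p = 0.494), so a fall of up to 0.52 was not told apart from no change.

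**Figure D2:**
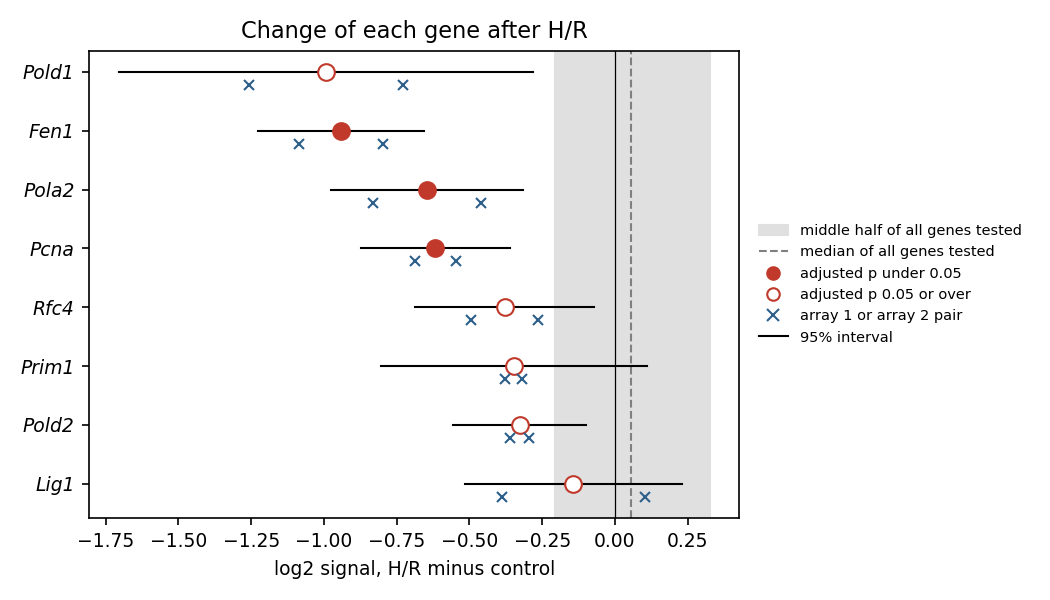
Log2 signal in H/R minus control for the 8 genes, in order of size, with 95% intervals from limma, crosses for the difference between the arrays numbered 1 and between the other arrays, and a grey band over the range between the quartiles of all genes tested, whose median is the dashed line. Fen1 (-0.94), Pola2 (-0.65) and Pcna (-0.62) have an adjusted p under 0.05, and Pold1 (-0.99) has the widest interval.

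The 3 calls rested on both H/R arrays. Without H/R replicate 1 the adjusted p was 0.0520 for Fen1, 0.0942 for Pcna and 0.102 for Pola2, and without H/R replicates 2 and 3 it was 0.0630, 0.0961 and 0.134. Without control replicates 2 and 3, Pcna (0.0516) and Pola2 (0.0649) missed the threshold and Fen1 did not. Each of these fits left 1 array in 1 group, assumed to vary like the others. With the filter on dim probes dropped, the adjusted p of the same differences was 0.0564 for Fen1, 0.0869 for Pcna and 0.111 for Pola2. The share of all genes called lower also fell in these fits: it was 1.63% without H/R replicate 1, 1.84% without H/R replicates 2 and 3, 7.14% without control replicates 2 and 3 and 0.933% without the filter, against 10.0% as reported. With a normexp background correction 0 of the 15899 probes passed (limma; 2129 at an unadjusted p under 0.05), the 8 genes among them, and with the local backgrounds flagged by the scanner software replaced in it, Fen1, Pcna, Pola2 and Rfc4 passed.

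**Figure D3:**
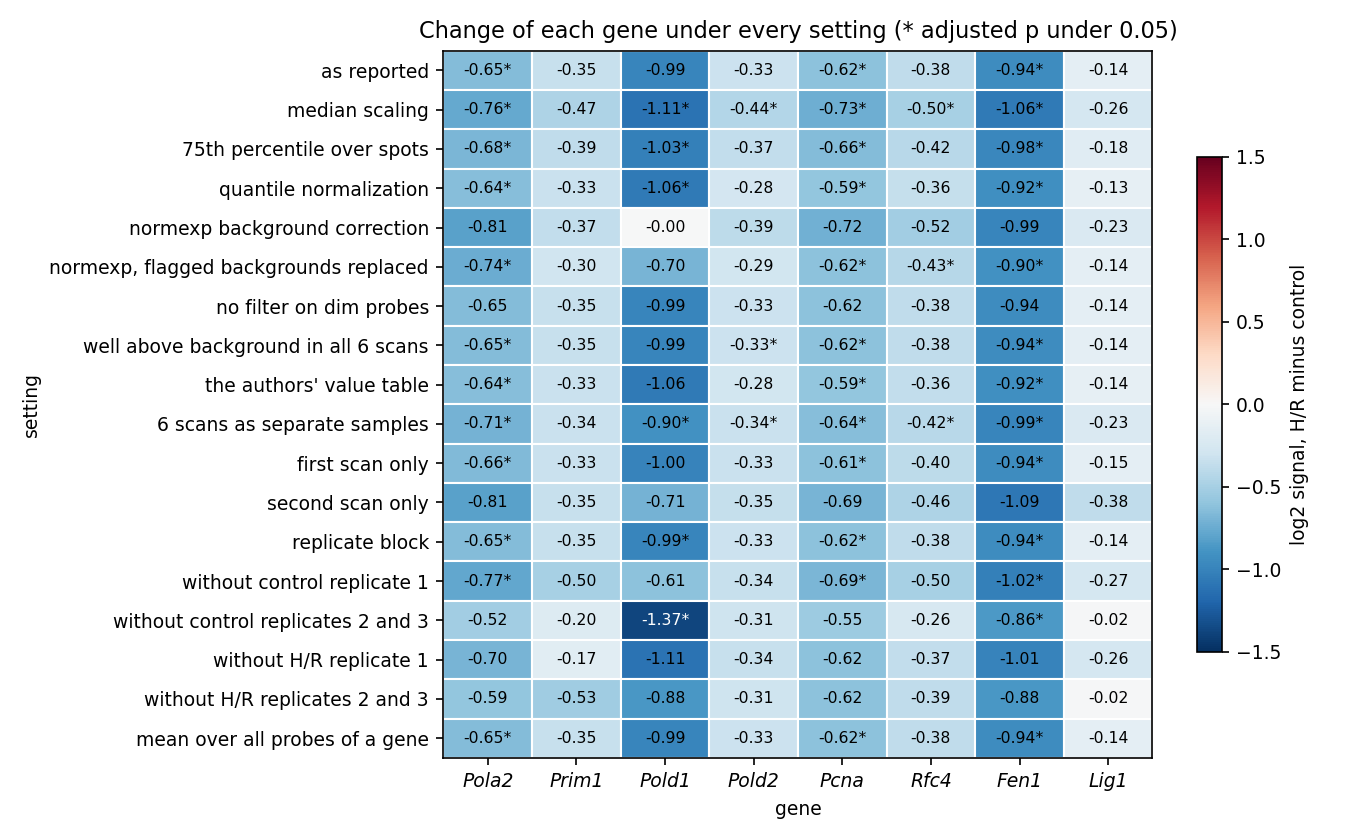
Log2 signal in H/R minus control for each of the 8 genes (columns) under each setting (rows), with an asterisk where the adjusted p was under 0.05. All values are negative, Fen1 ranges from -1.09 to -0.86 over the alternatives, and Pold1 ranges from -1.37 to -0.00.

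Among 13 measured genes for other fork polymerase, clamp loader and RPA subunits, 6 fell and 0 rose (limma). For comparison, 10.0% of all genes tested were called lower and 16.0% higher. At an unadjusted p under 0.05 (limma), 9 of the 13 were lower and 0 higher, against 17.0% and 24.8% of all genes tested. The median difference was -0.48, against 0.06 over all genes tested. Rpa2, a subunit of the complex that coats single-stranded DNA, gave 3.16, 2.88 and 2.93 in H/R, against 5.13, 5.55 and 5.49 in control, and fell by 0.81 (adjusted p = 0.00965). Pole, the catalytic subunit of polymerase epsilon, fell by 0.62 (adjusted p = 0.0150), and Rfc2 of the clamp loader by 0.64 (adjusted p = 0.0174). Rpa3 fell by 0.72 (adjusted p = 0.0212). Rfc1, Rfc3 and Rfc5 had values of -0.06, -0.28 and -0.55 and, like Rfc4, did not pass (limma, adjusted p = 0.682, 0.111 and 0.0625). Chtf18, also on this list, had a value of -0.12 and did not pass (limma, adjusted p = 0.363). The 1 positive value was that of Pole3, at 0.12 ± 0.12, a histone-fold subunit of polymerase epsilon. Pole3 and the other clamp loader genes were picked out after their values were seen.

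All 9 measured helicase-linked fork factors fell, where 10.0% of all genes tested were called lower, with a median of -0.67. Cdc45, a component of the active helicase, gave 2.44, 2.61 and 2.63 in H/R, against a lowest scan of 5.40 and a middle one of 5.97 in control, and fell by 1.17 (limma, adjusted p = 0.00515). Timeless and Tipin, which form the fork protection complex, fell by 1.34 and 0.63 (adjusted p = 0.00574 and 0.0126), and Gins2, of the GINS complex, fell by 1.00 (adjusted p = 0.00598). Summed over the 9 genes the level was 16.9 to 17.0 in H/R and 28.4 to 30.9 in control.

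Of 6 tested genes for factors that bind or modify PCNA, 5 fell, where 10.0% of all genes tested were called lower. Their median was -0.56. Rad18, the ubiquitin ligase that modifies PCNA at stalled forks, gave 0.441, 0.508 and 0.494 in H/R, against 1.12, 1.47 and 1.50 in control, and fell by 1.45 (limma, adjusted p = 0.00849). Ung, the uracil glycosylase, fell to 0.466 times its control mean (adjusted p = 0.00825), Pclaf, a PCNA-associated factor, by 0.66 (adjusted p = 0.0246), Chaf1b, of chromatin assembly factor 1, by 0.46 (adjusted p = 0.0313) and Usp1, which removes ubiquitin from PCNA, by 0.43 (adjusted p = 0.0353). Cdkn1a, the CDK inhibitor p21 that also binds PCNA, was the gene that did not pass, at 0.37 ± 0.17 (adjusted p = 0.187).

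Flap processing and primer removal genes other than Fen1 gave no call among 4 tested in limma, and none at an unadjusted p under 0.05. Of all genes tested, 10.0% were called lower and 16.0% higher. Their values were 0.61 for Exo1, 0.16 for Rnaseh2a, -0.11 for Rnaseh1 and -0.13 for Rnaseh2b, with a median of 0.02. Exo1 was well above background in 1 of 3 control scans.

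Polymerases and ligases of repair and lesion bypass had a median of 0.06, equal to that of all genes. Of 9 tested, Polq fell and Polb and Polm rose, where 10.0% of all genes tested were called lower and 16.0% higher. Polq, the polymerase of microhomology-mediated end joining, gave 0.374, 0.366 and 0.369 in H/R, against 0.632, 0.659 and 0.660 in control, a fall of 0.80 (limma, adjusted p = 0.00761). Polb, the base excision repair polymerase, gave 2.19, 2.01 and 2.04 in H/R, against 1.55, 1.47 and 1.46 in control, a rise of 0.48 (adjusted p = 0.0296). Polm, an end-joining polymerase, rose by 0.54 (adjusted p = 0.0315). The difference between these polymerases and the fork polymerases was not tested.

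Of the 9-1-1 checkpoint clamp, a ring related in shape to PCNA, and its loader, Hus1 fell by 0.43 (limma, adjusted p = 0.0322), while Rad1 had a value of -0.37 (adjusted p = 0.0627) and Rad17 one of -0.03. In mitochondrial DNA replication 2 of 5 genes fell, where 10.0% of all genes tested were called lower. Polg, the mitochondrial polymerase, fell by 0.49 (limma, adjusted p = 0.0294) and Twnk, its helicase, by 0.56 (adjusted p = 0.0390). The list's median was -0.19, with Tfam at -0.19 and Polg2 at -0.03.

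Mitosis genes, set beside the replication genes as another phase of the cycle, gave 2 lower and 0 higher calls of 11 tested. Of all genes tested, 10.0% were called lower and 16.0% higher. At an unadjusted p under 0.05 (limma), 3 of the 11 were lower and 1 higher, against 17.0% and 24.8% of all genes. Aurkb fell by 0.65 (limma, adjusted p = 0.0129) and Ccna2, a cyclin of S phase and G2, by 0.48 (adjusted p = 0.0246). Cdk1 (-0.26, adjusted p = 0.102) and Aurka (0.42, adjusted p = 0.0935) did not pass. The median was -0.15, and the summed level was 85.9 to 88.6 in H/R and 89.5 to 95.1 in control. Of 11 tested E2F and G1/S regulators 7 fell and 0 rose (limma), against 10.0% lower and 16.0% higher calls over all genes tested. At an unadjusted p under 0.05 (limma), 8 were lower and 0 higher, against 17.0% and 24.8% of all genes. The median of these regulators was -0.72. Ccne2 and Ccnd1, both G1 cyclins, fell by 1.45 and 1.37 (adjusted p = 0.00561 and 0.00675), and E2f1 and E2f7 by 0.93 and 0.88 (adjusted p = 0.00631 and 0.00666). Whether the fork genes moved with these regulators in the same cells was not tested.

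**Figure D4:**
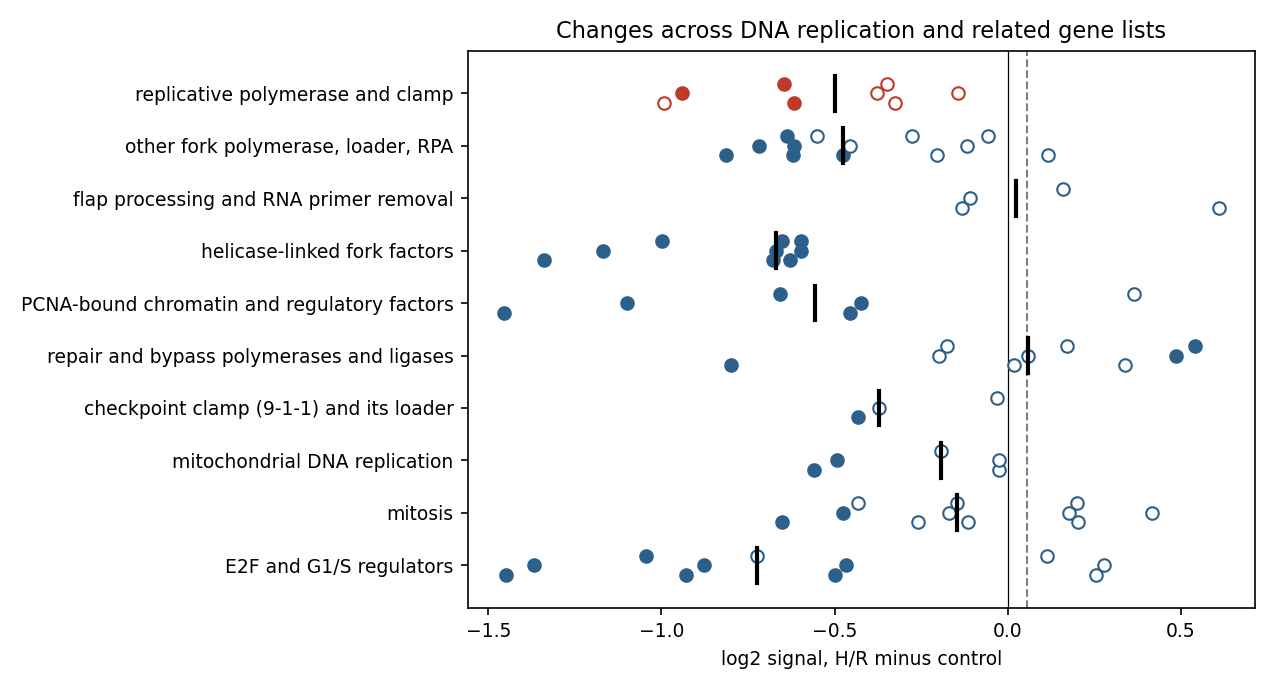
Log2 signal in H/R minus control for each tested gene of the replicative polymerase and clamp set and of each other list, with filled points for genes at an adjusted p under 0.05 a short bar at each list's median and a dashed line at the median of all genes tested. Medians lie at -0.50 for the 8 genes, -0.67 for the helicase-linked factors, -0.15 for mitosis genes and 0.06 for repair and bypass polymerases and ligases.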

How the data were processed

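Arraystar lncRNA and mRNA arrays read in 1 colour measured rat H9c2 RNA of 3 H/R and 3 control samples, with ribosomal RNA removed and random priming, per the labels' protocols. The deposited scanner files hold intensity values, extracted with Agilent Feature Extraction 11.0.1.1 per the file headers, which are background-corrected and not normalized between arrays. Spots that were outliers, saturated or well above background carry 0 or 1 flags in these deposited files, a coding other than a measured value. A second deposited table gives the authors' log2 values for 16841 probes, which correlated across probes with the scanner log2 values at r of 0.995 to 0.9996 and had column medians of 9.18 to 9.19, so the scale is log2 and genes were not centred. The sources used here do not give its normalization.

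From these files, control and outlier spots were left out, log2 processed signal was averaged over the spots of a probe, and each array's 75th percentile over probes was subtracted (1792, 2612 and 2686 units in H/R replicates 1 to 3, and 2463, 2119 and 2122 in control). A level is given as a multiple of that percentile and is compared only within a probe. Of 24684 probes 15899 were tested, namely those that 1 group or both had well above background in each of 3 scans. Replicates 2 and 3 of a group were averaged (avearrays). The groups were compared with limma 3.58.1 in R 4.3.3 (lmFit and eBayes, two-sided, 2 residual and 2.71 prior degrees of freedom) with Benjamini-Hochberg adjustment over the 15899 probes and a threshold of 0.05. The procedure was tested on simulated independent arrays with its own fitted variances, which cannot show how it handles the shared slide or position. Tables were handled with Python 3.11.15 and pandas 2.3.3, and figures drawn with matplotlib 3.10.9.

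Symbols came from RefSeq's GRCr8 gene table by accession without version, which named 14274 of 15323 coding probes. A gene was represented by its probe of highest mean log2 signal. The members and gene lists were chosen with earlier results of these data known, so a list's direction is a description and no set test was made. Named are all members, up to 4 tested genes of each list with the smallest adjusted p, and every gene of a direction with 5 or fewer calls. Alternatives changed the scaling, the background correction, the filter on dim probes, the treatment of scans, the probe per gene and the arrays used. The normexp alternative (offset 50) used median pixel signals and median local backgrounds. The replicate numbers were checked for pairing: deviations from group means correlated at r = 0.153 between the groups. Both arrays of a group deviate from its mean by the same amount in opposite directions. The correlation is therefore the same for either numbered array pair by construction, and the pairs are no separate evidence. The array pairs were too few to establish a pairing.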

Additional observations from a re-analysis of the deposited data

How the results depend on the processing

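All 8 genes kept a negative difference under all 16 alternatives, leaving aside the mean over a gene's probes, each having 1 probe. Among the 16, the changed filters on probe signal and the replicate block could not change a difference, only its test. The median of the 8 genes stayed between -0.62 and -0.41 over the 16 alternatives, and no gene was called higher. Of the 15 with a test, Fen1 passed in 11 and Pcna and Pola2 in 10 each. Against 3 lower calls as reported, 6 genes passed with median scaling and 6 with the 6 scans as separate samples, which counts 1 array as 2; the share of all genes called lower was 14.9% and 23.8% there, against 10.0% as reported. The added calls in both were Pold1, Pold2 and Rfc4. Median scaling moved the median of all probes to -0.06, against 0.06 as reported. Without the filter on dim probes 0 passed (0.933% of all genes lower; the cause was not tested), and the count was 0 to 3 over fits leaving out a replicate (0 without H/R replicate 1 or without H/R replicates 2 and 3, with 1.63% and 1.84% of all genes lower). With the replicate block 4 passed, Pold1 being added (limma, adjusted p = 0.0231), and 10.5% of all genes were lower. The second scan alone gives 1 array per group, so values and no test. Quantile normalization gave 4 calls, the log2 values the authors deposited gave 3, and the first scan alone 3. The share of all genes called lower was 11.3%, 9.61% and 9.91% in these fits. With the normexp correction 0 of the 8 and 0 of all 15899 probes passed in limma (adjusted p = 0.266 for Fen1), and the Pold1 difference was -0.00. The 5th percentile of corrected signals was 388.5 in H/R replicate 1, against 65.7 to 80.7 in the other scans. Setting its highest local background (9257 units) to the array's median left it at 348.7, and setting all 202 backgrounds that the scanner software flagged there, and those of the other scans, brought it to 61.96. With that last alternative, chosen after seeing the data, 4 genes passed, Fen1, Pcna, Pola2 and Rfc4, and 9.83% of all genes were lower. Taking the 75th percentile over spots, also chosen after seeing the data, gave 4 calls, with 10.9% of all genes lower. Signal over background limits Pold1 most, whose spot lay within a few fold of its local background in H/R.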

Other observations

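Across the tested genes with a promoter in the RefSeq table, 12.3% of the 1324 with an E2F core match (the 7 letters given above, either strand) were lower in H/R and 11.4% were higher, against 9.51% lower and 16.4% higher of the 6917 without one. The median differences were -0.01 with a match and 0.06 without. These shares describe the genes on this array and were not tested.

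Of the 16 genes next to the 8 measured members in GRCr8 order, 6 were tested in limma, 0 fell and 2 rose: Fads1, beside Fen1, by 0.81 (adjusted p = 0.00890), and Aebp1, beside Pold2, by 0.69 (adjusted p = 0.0105). Over all genes tested the shares called were 10.0% lower and 16.0% higher. Eif4a2, beside Rfc4, had a value of -0.18, Tmem230, beside Pcna, 0.07, Nr1h2, beside Pold1, 0.35, and Naca, beside Prim1, -0.05. These neighbours were listed after the members' values were known.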
